A study of Homo sapiens with 9 samples.

Results

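The 9 genes described here encode telomerase, the enzyme that extends chromosome ends, and shelterin, the protein complex that covers them. They were picked by symbol from a count table of 26485 genes: TERT, TERC, TERF1, TERF2, TERF2IP, TINF2, POT1, ACD and RTEL1. The choice was made with values of these libraries in view, above all the loss of TERT reads in K148R cells, so the levels of TERT in each genotype, and the levels of the others in comparisons with K148R cells, are given as a description with no test. All 9 symbols were in the table, and 8 passed the filter on low counts among 12845 tested genes. TERC did not pass.

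RNA was sequenced from MV4;11, a human acute myeloid leukaemia line with a rearranged MLL gene, in 3 genotypes of the transcription factor MYC with 3 libraries each. These were cells with mutated MYC at K148Q, cells with mutated MYC at K148R, and parental MV411 cells. In K148Q a lysine is replaced by glutamine, a common stand-in for the acetylated residue, and in K148R by arginine, which cannot be acetylated. All cells were untreated and grown in RPMI. The sample titles carry the codes Q2, R14 and WT, and the sources used here do not say whether the first 2 name single clones or whether each library had its own culture. The p-values therefore measure the spread between these libraries, which may be technical.

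Telomerase copies a short template in its RNA subunit, TERC, onto the chromosome end, and its catalytic subunit, TERT, is the reverse transcriptase. TERT is silent in most adult cells and is switched on in many cancers, and MYC is known to bind E-boxes in its promoter and to activate it. Shelterin keeps chromosome ends from being read as DNA breaks. TERF1 and TERF2 bind double-stranded telomere repeats, TERF2IP (RAP1) binds TERF2, POT1 binds the single-stranded overhang, ACD (TPP1) holds POT1 and recruits telomerase, and TINF2 (TIN2) joins the parts. RTEL1 is a helicase that unwinds the telomere loop during replication.

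The promoters of TERT and of the 3 shelterin genes whose levels differed most between genotypes are shown because the mutated factor binds the E-box CACGTG. Promoter sequences from RefSeq (GRCh38.p14) matched 6 of the 9 genes, and the 250 bases before the annotated start are printed 5′ to 3′, with CACGTG in capitals. For TINF2 the first of its listed starts is shown.
TERT (chr5:1295069-1295318, strand -): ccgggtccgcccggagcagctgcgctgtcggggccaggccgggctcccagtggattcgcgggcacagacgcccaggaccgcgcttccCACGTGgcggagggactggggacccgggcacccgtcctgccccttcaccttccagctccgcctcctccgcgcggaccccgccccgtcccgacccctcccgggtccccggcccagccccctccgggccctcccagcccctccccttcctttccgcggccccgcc
POT1 (chr7:124929826-124930075, strand -): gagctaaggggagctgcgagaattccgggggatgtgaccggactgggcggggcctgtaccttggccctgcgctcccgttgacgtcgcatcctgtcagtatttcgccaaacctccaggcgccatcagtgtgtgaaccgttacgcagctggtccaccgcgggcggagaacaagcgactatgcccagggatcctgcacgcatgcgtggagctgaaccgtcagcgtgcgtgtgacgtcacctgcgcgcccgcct
ACD (chr16:67660261-67660510, strand -): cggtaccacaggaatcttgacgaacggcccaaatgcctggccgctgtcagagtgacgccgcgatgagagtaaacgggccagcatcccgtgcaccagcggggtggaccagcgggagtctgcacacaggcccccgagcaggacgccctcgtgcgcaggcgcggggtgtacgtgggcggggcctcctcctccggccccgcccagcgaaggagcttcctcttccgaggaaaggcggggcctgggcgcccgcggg
TINF2 (chr14:24242675-24242924, strand -): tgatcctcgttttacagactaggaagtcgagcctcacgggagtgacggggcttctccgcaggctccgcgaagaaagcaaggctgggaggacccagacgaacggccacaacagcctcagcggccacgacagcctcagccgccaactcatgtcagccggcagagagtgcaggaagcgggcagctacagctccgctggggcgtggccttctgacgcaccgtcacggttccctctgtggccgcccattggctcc
The TERT promoter held 1 CACGTG, which reads the same on both strands and begins 163 bases before the start. The promoters of the other 5 matched genes (TERF2IP, TINF2, POT1, ACD and RTEL1) held none in this window. Among 35116 promoter windows of the same length 6.34% held CACGTG, as did 8.31% of the 13668 windows of tested genes. The GC box, GGGCGG or CCGCCC on the other strand, occurred 2 times in each of the printed TERT, POT1 and ACD windows and 1 time in that of TINF2, and 42.6% of all windows held at least 1. These are matches of letters, not measured binding sites.

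Library totals ran from 13747087 to 18938391 counts. All 12 markers of myeloid leukaemia examined reached 10 counts in some library, and they summed to 2269 to 2315 CPM in K148Q, 3710 to 3797 CPM in K148R and 1609 to 1639 CPM in parental libraries. CPM here are normalised counts scaled by library size with edgeR's TMM method. Of the T and NK cell markers, CD3E and KLRD1 were at 0 throughout and only NKG7 reached 10 counts. The 4 fibroblast markers summed to at most 0.062 CPM in K148Q, 4.40 to 7.98 CPM in K148R and 0 to 2.95 CPM in parental libraries, and their part in the results was not tested. In any library the B cell markers summed to at most 3.93 CPM, erythroid markers to 0.495 CPM and epithelial markers to 0.0677 CPM. MYC itself had 472 CPM in K148Q, 379 CPM in K148R and 333 CPM in parental cells (means, n = 3 each). K148Q replicate 3 stood apart from the other K148Q libraries, with a chi-square over its degrees of freedom of 17.8 and 18.3 against them, where the other pairs of libraries within a genotype had 1.35 to 5.22. Its deviation followed the GC content of the longest annotated transcript of each gene, with Spearman's rho at -0.74 over 12140 genes. Genes are not independent samples. Where leaving it out changed a call named here, the value without it stands beside that call. Counts for the other gene lists in K148Q against parental cells are given with and without it where they moved. Some list counts in comparisons with K148R cells moved as well, and most of those are given only with it. Without it 64.2% of all genes passed in K148Q against parental cells. In bulk RNA, fewer expressing cells and less RNA per cell cannot be told apart.

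TERT, the catalytic subunit, was low in K148Q cells, without a single count in K148R cells and present in parental cells. In K148Q replicates 1 to 3 it had 3.19, 2.94 and 1.74 CPM (49, 43 and 28 counts). The K148R replicates had 0, 0 and 0 counts, so its level was under 0.0608 CPM, the floor that 3 counts over all its libraries would give. Parental replicates had 15.2, 15.8 and 15.2 CPM (252, 219 and 255 counts). The genotypes did not overlap, and every mutant library lay below every parental library.

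The fitted level of TERT was 5.89-fold lower in K148Q than in parental cells, a log2 fold change of -2.56 (SE 0.18). Without K148Q replicate 3, the lowest of that group, the log2 fold change was -2.31. Computed against the floor, the TERT level was at least 253-fold lower in K148R than in parental cells. In the same way it was at least 42.8-fold lower in K148R than in K148Q cells. These bounds take the parental and K148Q counts as they are. With their counting error, the 95% interval of the ratio of counts in K148R against parental cells ended at 0.00488. For K148R against K148Q cells that interval ended at 0.0292. Floors and count intervals cover counting error only. TERT lies on chromosome 5 (1253147 to 1295069, minus strand, GRCh38), and none of its exonic bases is shared with another gene in GENCODE v29.

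TERC, the RNA subunit, was near the limit of detection in every library. It had 0, 0 and 0 counts in the K148Q replicates, 6, 9 and 7 counts in the K148R replicates, and 2, 1 and 0 counts in the parental replicates. Each K148R library was thus above each library of the other genotypes, at 0.326 to 0.610 CPM. The ratio of counts in K148R against parental cells was 7.02 (95% interval 2.11 to 36.6), and set against the floor of 3 counts in K148Q cells TERC was at least 6.86-fold higher in K148R than in K148Q cells. That bound takes the K148R counts as they are, and with their counting error the 95% interval of the ratio began at 5.12. K148Q and parental cells were both at or under the floor, so no ratio is given. TERC (chromosome 3, 169764520 to 169765060) has no poly(A) tail, and some other RNAs without one, RN7SK and SCARNA10 among them, were also higher in K148R libraries. Their part in the TERC counts was not tested. In GENCODE v29, 81.0% of the exonic bases of TERC are also covered by RF00024, an annotation entry of type misc_RNA on the same strand. This entry is not among the symbols counted here. Whether it stands for an RNA other than TERC was not examined, and the effect of the overlap on the TERC counts is not known.

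**Figure D1:**
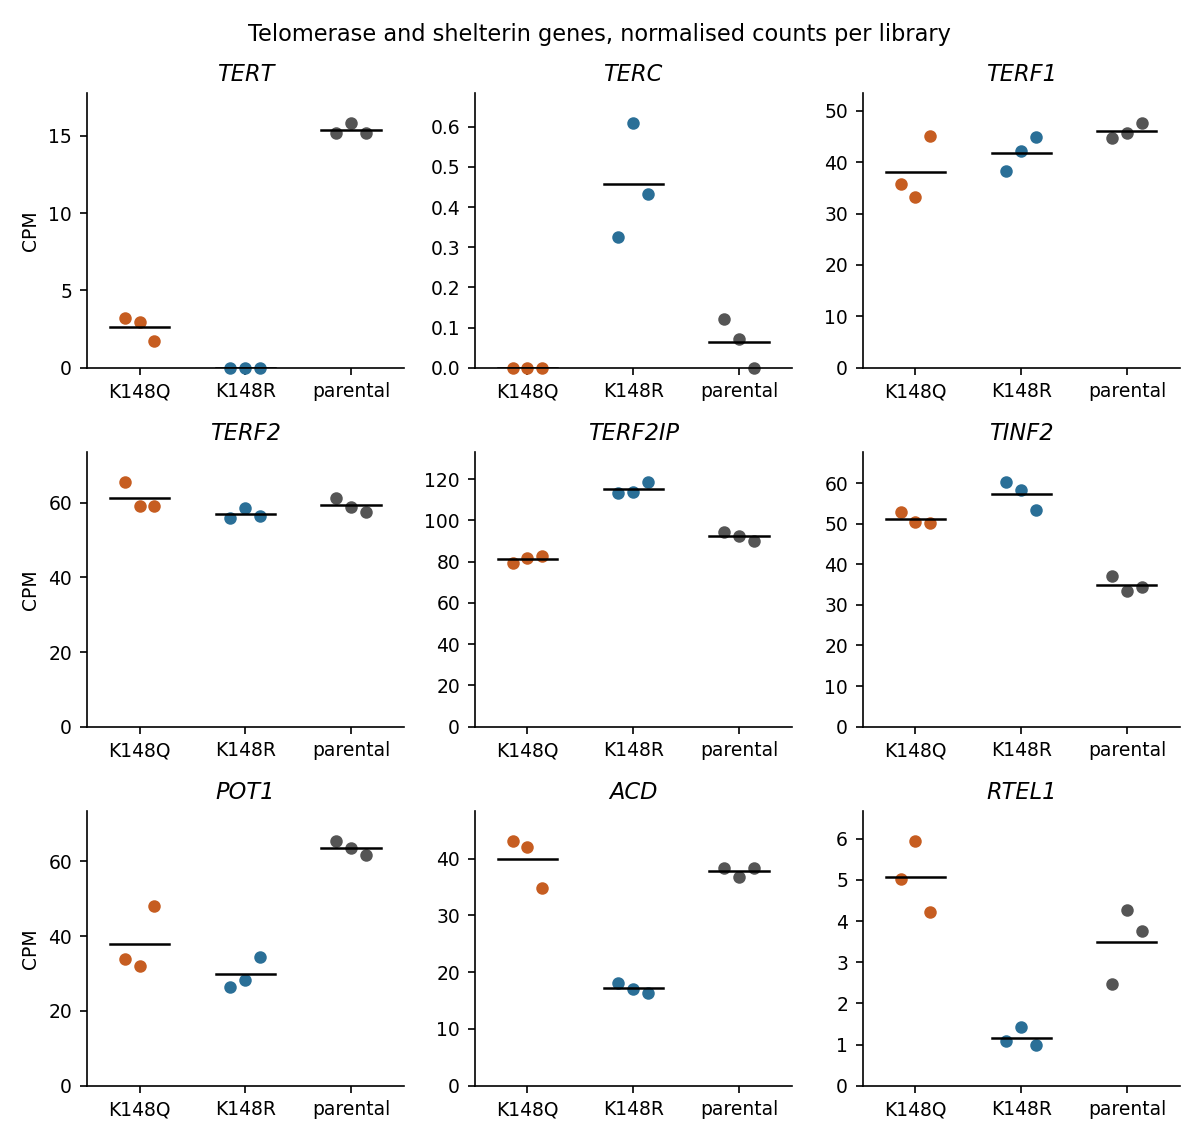
Normalised counts (CPM, linear axes that start at 0 and differ between panels) of the 9 genes in each library of K148Q, K148R and parental cells. Points are libraries and bars are means of 3; TERT sits at 0 in all K148R libraries and at 15.2 to 15.8 CPM in parental libraries.

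In K148Q against parental cells, 5 of the 7 tested genes other than TERT passed the threshold of edgeR's quasi-likelihood test (Benjamini-Hochberg adjusted p under 0.05 over all tested genes). Over all genes 53.3% passed, 27% higher and 26.3% lower, while 2 of the 7 were higher and 3 lower. Groups did not overlap for 3 of the 7 genes, against 59.5% of all tested genes. Their median absolute log2 fold change was 0.27, beside 0.30 over all genes. The calls of TINF2 and POT1 held in all 17 alternative fits, and those of TERF1, TERF2IP and RTEL1 did not.

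TINF2, which joins the DNA-binding and overhang-binding parts of shelterin, rose in K148Q cells. It had 52.8, 50.5 and 50.1 CPM in K148Q replicates and 37.1, 33.4 and 34.4 CPM in parental replicates. No library of one group reached the range of the other. The log2 fold change was 0.55 (SE 0.074, adjusted p = 2.6e-05), a rise of 1.46-fold.

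POT1, which covers the single-stranded overhang, fell in K148Q cells. Levels were 33.7, 32.0 and 48.1 CPM in K148Q replicates and 65.4, 63.6 and 61.8 CPM in parental replicates. All K148Q libraries were below all parental ones, with replicate 3 nearest to them. The log2 fold change was -0.74 (SE 0.14, adjusted p = 0.00063), and without K148Q replicate 3 it was -0.94 (adjusted p = 1.3e-12). The longest annotated transcript of POT1 has a GC content of 37.6%.

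TERF2IP, the partner of TERF2, fell slightly in K148Q cells. It had 79.4, 81.8 and 82.8 CPM in K148Q and 94.6, 92.2 and 90.2 CPM in parental replicates, which did not overlap. The log2 fold change was -0.18 (SE 0.056, adjusted p = 0.013). This call was lost without parental replicate 1 (adjusted p = 0.061) and without K148Q replicate 1 (adjusted p = 0.057).

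TERF1 and RTEL1 passed near the threshold, and in each the groups overlapped. TERF1, a binder of double-stranded repeats, had 35.8, 33.3 and 45.1 CPM in K148Q and 44.7, 45.6 and 47.6 CPM in parental replicates (log2 fold change -0.27, SE 0.10, adjusted p = 0.038). K148Q replicate 3 alone reached the parental range, and without it the log2 fold change was -0.40 (adjusted p = 1.5e-05). RTEL1 had 5.02, 5.95 and 4.21 CPM in K148Q and 2.47, 4.27 and 3.75 CPM in parental replicates (log2 fold change 0.54, SE 0.21, adjusted p = 0.04). Its call was lost without parental replicate 1 (log2 fold change 0.33, adjusted p = 0.2), the library with the lowest level. TERF1 kept its call in 10 of the 17 alternative fits, and so did RTEL1.

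TERF2, which forms and protects the telomere loop, and ACD did not pass in K148Q cells. TERF2 had 65.6, 59.1 and 59.2 CPM in K148Q and 61.4, 58.9 and 57.5 CPM in parental replicates (log2 fold change 0.05, SE 0.067, adjusted p = 0.57). ACD had 43.1, 42.0 and 34.8 CPM in K148Q and 38.3, 36.7 and 38.4 CPM in parental replicates (log2 fold change 0.08, SE 0.088, adjusted p = 0.48). Without K148Q replicate 3, the only K148Q library below the parental range, the log2 fold change of ACD was 0.18 (adjusted p = 0.03).

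Against parental cells, K148R cells had higher TINF2 and TERF2IP and lower POT1, ACD and RTEL1, besides the missing TERT. The threshold was passed by 6 of the 8 tested genes, TERT among them, 2 higher and 4 lower, where 75.1% of all genes passed, 37.8% higher and 37.3% lower. Groups did not overlap for 6 of the 8, against 80.6% of all tested genes. Since this comparison was in view when the genes were chosen, nothing is read from these counts.

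ACD, the recruiter of telomerase, was at 18.2, 17.1 and 16.4 CPM in K148R replicates and 38.3, 36.7 and 38.4 CPM in parental replicates. The highest K148R library was below the lowest parental one, with a log2 fold change of -1.13 (SE 0.094). POT1, its binding partner, was at 26.4, 28.4 and 34.5 CPM in K148R replicates against 65.4, 63.6 and 61.8 CPM in parental replicates, a log2 fold change of -1.10 (SE 0.14). ACD was 2.20-fold and POT1 2.14-fold lower in K148R cells.

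RTEL1 had 1.09, 1.42 and 0.990 CPM in K148R replicates (20, 21 and 16 counts) and 2.47, 4.27 and 3.75 CPM in parental replicates, a log2 fold change of -1.58 (SE 0.26). These counts are low, and 70.2% of the exonic bases of RTEL1 (chromosome 20, 63657810 to 63696253) are shared with the readthrough gene RTEL1-TNFRSF6B, which had 3 counts in all libraries together. The sources used here do not say how reads that touch more than 1 gene were counted, so the level of RTEL1 is uncertain.

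TINF2 was at 60.3, 58.4 and 53.4 CPM in K148R replicates and 37.1, 33.4 and 34.4 CPM in parental replicates (log2 fold change 0.71, SE 0.074). TERF2IP was at 113.1, 113.8 and 118.7 CPM in K148R replicates and 94.6, 92.2 and 90.2 CPM in parental replicates (log2 fold change 0.32, SE 0.055). In both genes every K148R library was above every parental library. TERF2IP (chromosome 16, 75647786 to 75761872) shares 5.2% of its exonic bases with KARS on the opposite strand, and the strand of counting is not known. The genes of the binders of double-stranded repeats, TERF1 and TERF2, differed less and their libraries overlapped. TERF1 had 38.2, 42.3 and 44.8 CPM in K148R and 44.7, 45.6 and 47.6 CPM in parental replicates (log2 fold change -0.14, SE 0.10), and TERF2 had 55.9, 58.5 and 56.4 CPM in K148R and 61.4, 58.9 and 57.5 CPM in parental replicates (log2 fold change -0.06, SE 0.067).

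**Figure D2:**
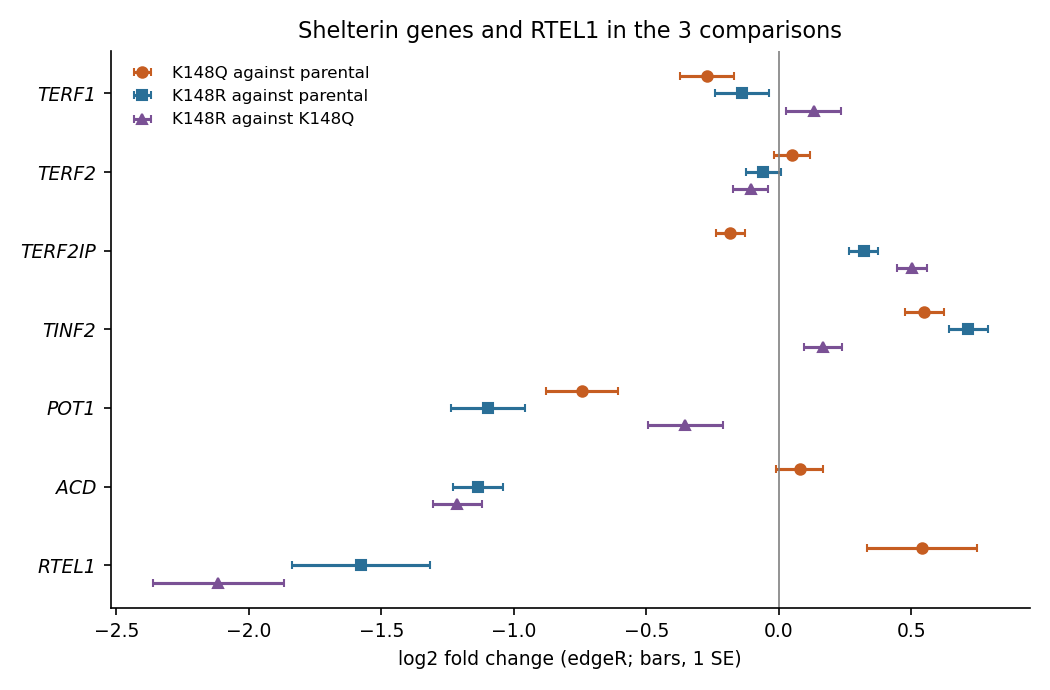
Log2 fold changes of the 6 shelterin genes and RTEL1 from edgeR, with bars of 1 SE, for each mutant against parental cells and for K148R against K148Q cells. TINF2 lies above 0 and POT1 below 0 in both comparisons with parental cells, while ACD lies at 0.08 for K148Q and at -1.13 for K148R.

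Among the 8 tested genes, which leave out TERC, K148R and K148Q cells differed from each other most in TERT, RTEL1 and ACD. Of the 8 genes 5 passed the threshold, 1 higher and 4 lower in K148R, where 71% of all genes passed, 36.6% higher and 34.5% lower. Groups did not overlap for 6 of the 8, against 71.4% of all tested genes. These counts include TERT, and since K148R values were in view when the genes were chosen, nothing is read from them. The log2 fold change in K148R against K148Q cells was -2.12 (SE 0.25) for RTEL1, -1.21 (SE 0.094) for ACD and 0.50 (SE 0.056) for TERF2IP. The ACD levels of 16.4 to 18.2 CPM in K148R cells lay below the 34.8 to 43.1 CPM in K148Q cells, and RTEL1 at 0.990 to 1.42 CPM in K148R cells lay below 4.21 to 5.95 CPM in K148Q cells.

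POT1 and TINF2 differed less between the mutants. POT1 had a log2 fold change of -0.35 (SE 0.14) in K148R against K148Q cells, with overlapping libraries, and -0.16 without K148Q replicate 3. TINF2 had 0.17 (SE 0.072), TERF1 0.13 (SE 0.10) and TERF2 -0.11 (SE 0.067) as log2 fold changes. The TERF2IP levels fell on opposite sides of the parental range, at 79.4 to 82.8 CPM in K148Q, 113.1 to 118.7 CPM in K148R and 90.2 to 94.6 CPM in parental libraries. The 2 comparisons with parental cells share the parental libraries.

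Per length of the exons annotated in GENCODE v29, TERF2IP had the highest level of the 9 genes in each genotype, at 24.1 ± 0.525 CPM per kilobase in K148Q, 34.1 ± 0.897 in K148R and 27.3 ± 0.651 in parental cells (SD, n = 3 each). TINF2 came next, at 18.9 ± 0.525 CPM per kilobase in K148Q, 21.2 ± 1.31 in K148R and 12.9 ± 0.700 in parental cells. ACD had 12.4 ± 1.40 CPM per kilobase in K148Q, 5.34 ± 0.276 in K148R and 11.7 ± 0.295 in parental cells. TERF2 had 10.9 ± 0.662 CPM per kilobase in K148Q, 10.1 ± 0.247 in K148R and 10.5 ± 0.350 in parental cells, and overlapped with ACD in K148Q and with POT1 in parental cells. POT1 had 6.43 ± 1.497 CPM per kilobase in K148Q, 5.05 ± 0.712 in K148R and 10.8 ± 0.313 in parental cells. TERF1 was the lowest of the 6 shelterin genes in each genotype, at 4.31 ± 0.706 CPM per kilobase in K148Q, 4.73 ± 0.376 in K148R and 5.21 ± 0.172 in parental cells, and in K148R cells POT1 overlapped with both ACD and TERF1. TERT had 0.570 ± 0.169 CPM per kilobase in K148Q and 3.35 ± 0.081 in parental cells, below the 6 shelterin genes in each genotype. The sources used here do not name the authors' annotation, and the order depends on these exon lengths.

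The ratio of POT1 to ACD, which form a dimer, was taken within each library from these levels per length. It was 0.428, 0.417 and 0.755 in K148Q replicates, 0.795, 0.909 and 1.15 in K148R replicates, and 0.933, 0.947 and 0.879 in parental replicates. The K148Q ratios lay below the parental ones, with replicate 3 apart from the others, while K148R and parental ratios overlapped. The ratio of TINF2 to TERF1, its DNA-binding partner, was 4.80, 4.94 and 3.62 in K148Q, 5.14, 4.50 and 3.88 in K148R, and 2.70, 2.38 and 2.35 in parental replicates. Both mutants lay above the parental range.

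The deviation of K148Q replicate 3 from the mean of the other K148Q libraries differed between the genes and went with their GC content. On the log2 scale it was -0.67 for TERT (transcript GC content 65.7%), -0.34 for RTEL1 (62.5%) and -0.28 for ACD (61.8%), but 0.54 for POT1 (37.6%) and 0.38 for TERF1 (45.2%). TERF2, TERF2IP and TINF2, with 50.1% to 54.2% GC, deviated by -0.07, 0.04 and -0.04.

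Of 21 tested genes that build telomerase or process TERC, 16 fell and 1 rose in K148R against parental cells, where 75.1% of all genes passed, 37.3% lower (median log2 fold change -0.61, beside 0.00 over all genes). RUVBL1 and RUVBL2, ATPases that assemble the enzyme, fell to 59.6 and 158 CPM in K148R cells, against 197 and 324 CPM in parental cells (adjusted p = 4.3e-12 for RUVBL1 and 9.6e-10 for RUVBL2). HSP90AA1, a chaperone, fell to 2120 CPM in K148R cells, against 3185 CPM in parental cells (adjusted p = 9.2e-09). WRAP53, which carries telomerase to Cajal bodies and was picked out with its values known, had 13.2 CPM in K148R and 27.6 CPM in parental cells, given with no test. This list and the other gene lists below were also chosen with earlier results of these data known. Genes are named from them mostly for their smallest p, so these p-values describe the genes and do not test the lists. NOP10, a protein bound to TERC, and LARP7 did not pass, at 100.02 and 84.5 CPM in K148R and 104.9 and 85.6 CPM in parental cells (adjusted p = 0.31 and 0.84).

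In K148Q against parental cells 6 of these 21 fell and 1 rose (median -0.05), where 53.3% of all genes passed. PARN, a ribonuclease that trims TERC, had 74.5 CPM in K148Q and 102 CPM in parental cells (adjusted p = 8.3e-05). ZCCHC8, of the nuclear exosome targeting complex, had 32.5 CPM in K148Q and 43.1 CPM in parental cells (adjusted p = 0.00031). SHQ1, a chaperone of dyskerin, had 48.6 CPM in K148Q and 63.5 CPM in parental cells (adjusted p = 0.00056). NAF1 and PAPD5 did not pass (adjusted p = 0.9 and 0.97). Without K148Q replicate 3, 8 fell and 4 rose, where 64.2% of all genes passed. Set against K148Q cells, K148R cells had 15 lower and 1 higher (median -0.34), where 71% of all genes passed, 34.5% lower. RUVBL1, RUVBL2 and TOE1 led, and TOE1, a deadenylase, had 24.8 CPM in K148R and 55.0 CPM in K148Q cells (adjusted p = 5.2e-09).

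Of 25 tested genes that replicate, process and repair chromosome ends, 21 fell and 3 rose in K148R against parental cells, where 75.1% of all genes passed, 37.3% lower and 37.8% higher. Of the 21, 15 fell by at least 2-fold, and the median log2 fold change of the 25 was -1.43, beside 0.00 over all genes. The list was not limited to genes that act only at chromosome ends. Whether the fall is particular to chromosome ends was not tested. PRIM1, a primase subunit, had 10.4 CPM in K148R and 109 CPM in parental cells (adjusted p = 6.9e-14). POLA1, the catalytic subunit of DNA polymerase alpha, had 17.0 CPM in K148R and 124 CPM in parental cells (adjusted p = 1.1e-13), and the exonuclease EXO1 had 9.21 CPM in K148R and 91.7 CPM in parental cells (adjusted p = 1.3e-13). DCLRE1B (Apollo), a nuclease that TERF2 brings to the telomere, also picked out with its values known, had 10.03 CPM in K148R and 33.5 CPM in parental cells, given with no test. NBN, of the MRE11 complex, did not pass, at 139 CPM in K148R and 137 CPM in parental cells (adjusted p = 0.83), and RMI1 fell with the largest p of those called (adjusted p = 0.015).

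In K148Q cells 9 of these 25 fell and 4 rose against parental cells (median -0.13), a share near the 53.3% of all genes. With K148Q replicate 3 left out, 13 fell and 6 rose, where 64.2% of all genes passed. RPA3, of the single-strand binding complex, had 35.3 CPM in K148Q and 51.3 CPM in parental cells (adjusted p = 5.1e-05), and the helicase BLM had 103 CPM in K148Q and 147 CPM in parental cells (adjusted p = 0.00013). POLA2 rose to 115 CPM in K148Q cells, against 85.4 CPM in parental cells (adjusted p = 0.00025). EXO1 and MRE11A did not pass (adjusted p = 0.86 and 0.95). Relative to K148Q cells, 19 fell and 3 rose in K148R cells (median -1.14), where 71% of all genes passed, 34.5% lower. The smallest p were those of FEN1, TIMELESS and EXO1. FEN1, a flap nuclease, had 51.4 CPM in K148R and 333 CPM in K148Q cells (adjusted p = 1.3e-13).

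The CST complex caps the overhang and fills in the opposite strand. Its CTC1 gene had 36.2 ± 6.74 CPM in K148Q, 28.1 ± 1.196 CPM in K148R and 27.8 ± 1.90 CPM in parental cells (SD, n = 3 each), and rose in K148Q cells (log2 fold change 0.38, adjusted p = 0.014; 0.53 without K148Q replicate 3). OBFC1, the STN1 gene, did not pass in either mutant against parental cells (adjusted p = 0.27 for K148Q and 0.29 for K148R), but without K148Q replicate 3 it passed in K148Q cells (log2 fold change 0.18, adjusted p = 0.045). Both were lower in K148R than in K148Q cells (adjusted p = 0.011 and 0.032). TEN1 was listed at 0 in all libraries.

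Of 11 tested chromatin and repeat-binding genes, 3 rose and 3 fell in K148Q against parental cells, and 6 rose and 3 fell in K148R against parental cells. Over all genes 53.3% passed in K148Q and 75.1% in K148R, in both directions, so these counts lie near those of all genes. Without K148Q replicate 3, all 11 passed in K148Q, 5 higher and 6 lower, where 64.2% of all genes passed. All 11 then also passed in K148R, 6 higher and 5 lower, where 80.1% of all genes passed. SAMHD1, a dNTP hydrolase, had 333 ± 9.26 CPM in K148Q, 947 ± 32.8 CPM in K148R and 384 ± 1.70 CPM in parental cells (SD, n = 3 each), and it fell in K148Q (adjusted p = 0.0015) and rose in K148R cells (adjusted p = 2.4e-12). DAXX, a histone chaperone, rose in both mutants, to 104 CPM in K148Q (adjusted p = 6e-05) and 108 CPM in K148R (adjusted p = 7.2e-06), against 76.9 CPM in parental cells. Its partner ATRX had 51.8 CPM in K148Q cells and 76.2 CPM in parental cells (adjusted p = 0.00029), and ZBTB48 (TZAP), which binds telomere repeats, had 58.6 CPM in K148R and 36.8 CPM in parental cells (adjusted p = 4.4e-06). SMCHD1 and SIRT6 did not pass in K148Q cells (adjusted p = 0.77 and 0.38), nor did NR2C1 and NR2C2 in K148R cells (adjusted p = 0.057 and 0.16). The adjusted p without that library were 0.028 for SMCHD1, 0.0016 for SIRT6, 0.0046 for NR2C1 and 0.045 for NR2C2. Relative to K148Q cells, 5 rose and 2 fell in K148R cells, where 71% of all genes passed, with SAMHD1, SIRT6 and ZBTB48 first.

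Of 18 factors described at the TERT promoter, 7 were higher and 4 lower in K148Q, and 8 higher and 7 lower in K148R, against parental cells. These counts too lie near the shares of all genes, 53.3% in K148Q and 75.1% in K148R. In K148Q, 8 were higher and 5 lower without K148Q replicate 3, where 64.2% of all genes passed. MXD1, which pairs with MAX and opposes MYC at E-boxes, had 16.9 ± 2.89 CPM in K148Q, 60.5 ± 2.94 CPM in K148R and 10.2 ± 0.908 CPM in parental cells (SD, n = 3 each). It rose in both mutants (adjusted p = 0.00018 and 3.7e-11). E2F1, a driver of S phase, had 75.9 ± 8.05 CPM in K148Q, 7.01 ± 1.63 CPM in K148R and 66.5 ± 1.82 CPM in parental cells, and fell in K148R cells (adjusted p = 7.6e-12). USF2, another E-box binder, rose in K148R cells to 138 CPM, against 76.7 CPM in parental cells (adjusted p = 1.1e-08). ETS2 fell to 102 CPM and WT1 rose to 31.4 CPM in K148Q cells, against 216 and 19.3 CPM in parental cells (adjusted p = 8.7e-10 and 1.6e-05). MYC rose in K148Q cells (log2 fold change 0.50, adjusted p = 1.5e-06) and less in K148R cells (log2 fold change 0.18, adjusted p = 0.0045). SP1 and USF2 did not pass in K148Q cells (adjusted p = 0.96 and 0.88), nor MEN1 and CTCF in K148R cells (adjusted p = 0.92 and 0.28). Between the mutants 8 were higher and 5 lower in K148R than in K148Q cells, where 71% of all genes passed. E2F1, MXD1 and USF2 came first.

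**Figure D3:**
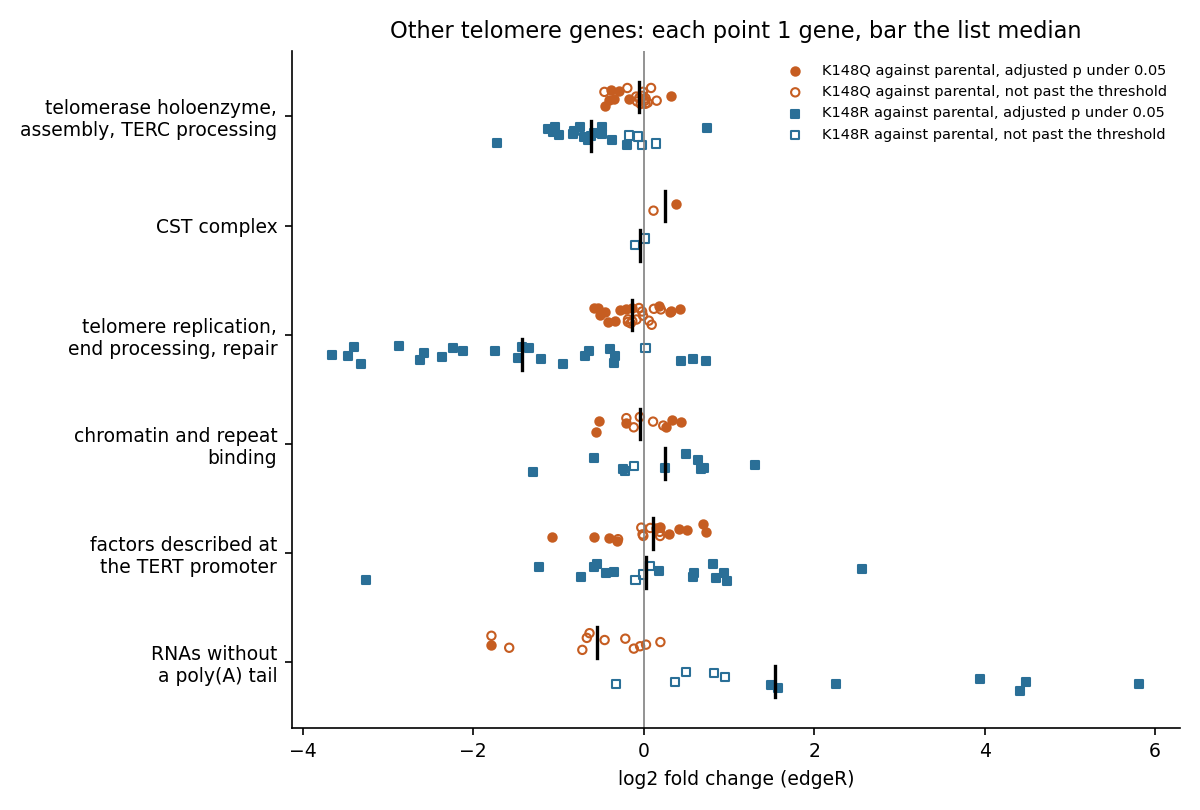
Log2 fold changes from edgeR of each tested gene in 6 lists of other telomere-related genes, for K148Q against parental (circles) and K148R against parental (squares). Filled symbols passed the adjusted threshold and black bars are list medians; the replication list has its median at -0.13 for K148Q and -1.43 for K148R.

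TERC belongs to the RNAs without a poly(A) tail. Of 19 such RNAs in the data, 12 were tested, and 7 rose, 0 fell and 5 did not pass in K148R against parental cells, but several passed the filter only through the K148R libraries, so nothing is read from the count. RN7SK was at 522, 496 and 434 CPM in K148R replicates, 7.43, 4.51 and 3.72 CPM in K148Q replicates, and 6.45, 15.98 and 4.17 CPM in parental replicates. SCARNA2, a Cajal body RNA, had 3.00 ± 0.903 CPM in K148R and 0.128 ± 0.0143 CPM in parental cells, and SCARNA10 had 3.75 ± 0.286 CPM in K148R and 0.168 ± 0.0203 CPM in parental cells (SD, n = 3 each). RMRP and SCARNA12 did not pass against parental cells (adjusted p = 0.27 and 0.25). Of these RNAs only RMRP passed in K148Q cells, at 0.657 CPM against 2.36 CPM in parental cells (adjusted p = 0.013).

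Genes around TERT were examined by their annotated position. Within 500 kilobases of TERT, 33 genes are annotated, 17 were in the table and 8 were tested. CLPTM1L, the nearest tested gene at 22.7 kilobases, had 178 ± 12.3 CPM in K148Q, 164 ± 4.12 CPM in K148R and 185 ± 4.69 CPM in parental cells (SD, n = 3 each). Its log2 fold change was -0.06 in K148Q (adjusted p = 0.408) and -0.18 in K148R against parental cells (adjusted p = 0.0133). SLC6A18, 7.0 kilobases from TERT on the other side, had 1 count in all libraries together.

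In K148Q against parental cells 3 of the 8 neighbours fell and 0 rose, where 53.3% of all genes passed. LPCAT1 had 225 CPM in K148Q and 305 CPM in parental cells, SLC12A7 had 69.7 CPM in K148Q and 104 CPM in parental cells, and ZDHHC11 had 0.568 CPM in K148Q and 1.24 CPM in parental cells. Without K148Q replicate 3 ZDHHC11 did not pass (adjusted p = 0.064), and BRD9 and NKD2 passed as higher (adjusted p = 0.0036 and 1.8e-05). In K148R against parental cells 4 fell and 1 rose, where 75.1% of all genes passed. TRIP13, an ATPase of the spindle checkpoint 333.8 kilobases away, had 8.57 CPM in K148R and 47.6 CPM in parental cells (log2 fold change -2.47), NKD2 had 83.8 CPM in K148R and 121 CPM in parental cells (log2 fold change -0.53), and LPCAT1 had 238 CPM in K148R and 305 CPM in parental cells (log2 fold change -0.36). ZDHHC11 rose to 4.55 CPM in K148R cells, against 1.24 CPM in parental cells. BRD9 and SDHAP3 passed in neither comparison with parental cells, and without K148Q replicate 3 BRD9 also passed as lower in K148R (adjusted p = 0.017).

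**Figure D4:**
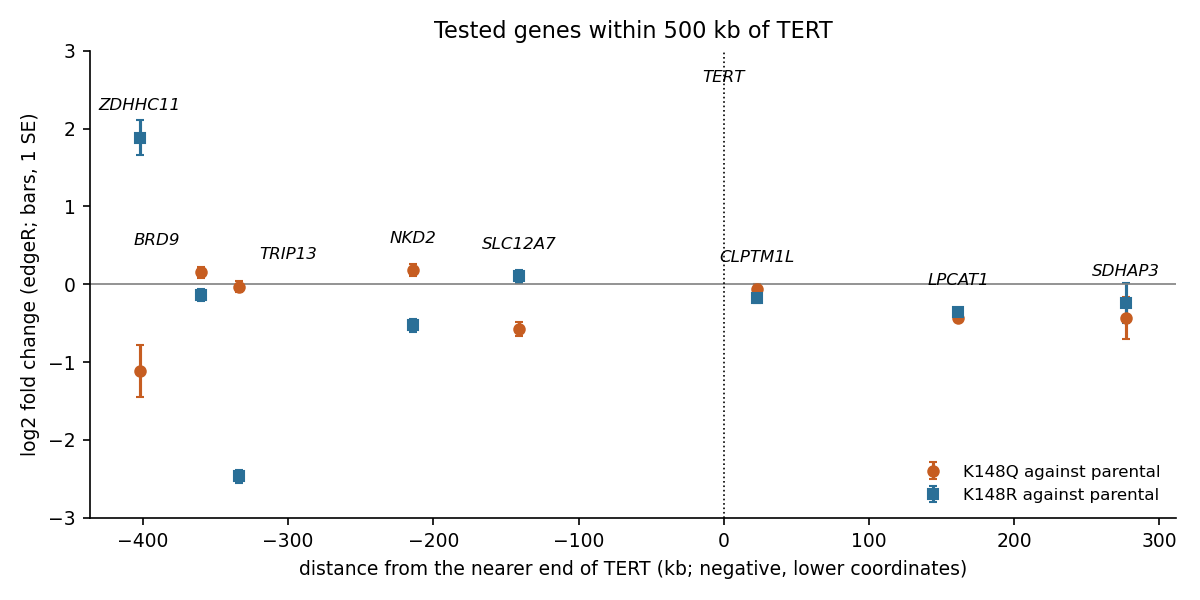
Log2 fold changes from edgeR, with bars of 1 SE, of the 8 tested genes within 500 kilobases of TERT, by distance in kilobases from its nearer end, for K148Q against parental (circles) and K148R against parental cells (squares). CLPTM1L, at 22.7 kilobases, lies at -0.06 and -0.18, and TERT itself is not plotted.

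The 6 tested genes whose profile over the 9 libraries was most like that of TERT were DHRS3, FRMD4A, TP53I11, ZFP82, IL31RA and ZNF486. Likeness was the Euclidean distance between log2(CPM + 0.5) profiles centred on the parental mean, which was 1.06 for DHRS3 and 2.10 for ZNF486, beside a median of 9.60 over all tested genes. DHRS3, a dehydrogenase of retinoid metabolism, had 3.76 ± 0.441 CPM in K148Q, 0.0206 ± 0.0357 CPM in K148R and 15.97 ± 1.31 CPM in parental cells (SD, n = 3 each). FRMD4A had 2.18 ± 0.256 CPM in K148Q, 0.125 ± 0.0663 CPM in K148R and 20.7 ± 0.418 CPM in parental cells. ZNF486, a zinc finger gene, had 8.07 ± 1.55 CPM in K148Q cells, 0 counts in K148R libraries and 30.7 ± 0.833 CPM in parental cells.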

How the data were processed

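Raw counts of reads per gene symbol, 1 column for each library, were deposited by the authors without any scaling. Per the submitters' processing notes, the tools were HISAT2 2.0.5, featureCounts 1.5.2 and FastQC 0.11.7, on GRCh38. The sources used here give neither their options nor the counting strand or annotation. Total RNA was extracted, per the labels' protocols.

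Genes were filtered with filterByExpr by genotype, scaled with TMM and tested in edgeR 4.0.16 (R 4.3.3) with the robust quasi-likelihood F test. All 9 libraries entered 1 fit, with Benjamini-Hochberg adjustment over 12845 genes at 0.05. The fit was checked on simulated data with the same spread for every gene, few changed genes and no library that stood apart. That check therefore does not cover departures such as that of K148Q replicate 3. Alternatives were DESeq2 1.42.0, limma-voom (limma 3.58.1), other scalings and filters, a replicate block, fits of the compared genotypes only, and leaving out each library. Exon lengths, overlaps and positions came from GENCODE v29 (GRCh38). The GC content of a gene was that of its longest transcript there.

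The 9 genes and the other lists were chosen with earlier results of these data known. Genes named from the other lists were the 3 with the smallest p and up to 2 with the largest in each comparison, unless said otherwise. An exact permutation test on 3 libraries a side has a smallest p of 0.1, so none was used.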

Additional observations from a re-analysis of the deposited data

How the results depend on the processing

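Over 17 alternatives, 376 of 408 log2 fold changes of the 8 tested genes kept their side of the threshold and, with 1 exception, their direction, 22 lost a call, 10 gained one and 0 called values turned. This total includes TERT and the comparisons with K148R cells, which were in view when the genes were chosen, so nothing is read from it. Of the values that never passed, TERF2 in K148Q against parental cells turned once, to -0.0017 without K148Q replicate 1. In K148Q against parental cells, 6 genes passed with TERT counted, and leaving out 1 library in turn gave 3 to 7. The count was 3 without parental replicate 1 or without K148Q replicate 1, when TERF1, TERF2IP and RTEL1 were lost. DESeq2 and upper-quartile scaling each lost RTEL1, and the fit of only the 2 genotypes compared lost TERF1 and RTEL1. TERF1 was also lost in each other fit without 1 of the parental libraries, without K148Q replicate 2 and without K148R replicate 2, and RTEL1 without parental replicate 3 and without K148Q replicate 2. The cause was not tested.

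K148Q replicate 3 was left out as a choice made after seeing the data. In K148Q against parental cells, 12 of 21 telomerase assembly genes then passed in place of 7, both CST genes (2) in place of 1, 11 of 11 chromatin and repeat-binding genes in place of 6, 19 of 25 replication genes in place of 13, and 13 of 18 promoter factors in place of 11. Over all genes 8402 of 13082 then passed, in place of 6848 of 12845.

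Libraries share replicate numbers across genotypes, but the labels tie these to no batch. Deviations of same-numbered libraries correlated by -0.02 to 0.27 over 9 pairs, and those of differently numbered libraries by -0.24 to 0.17 over 18. The highest value was between K148Q replicate 3 and K148R replicate 3, while not every library correlated best with its own number. Whether libraries of the same number share a batch was not tested. With a replicate block 6 genes passed in K148Q against parental cells, 6 in K148R against parental cells and 6 in K148R against K148Q cells, where TINF2 was added to the 5 without it. TERC, with 22 counts over the K148R libraries, was below the filter on low counts.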
